A study of Mus musculus with 8 samples.

Results

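Expression of 9 genes of the p38 MAP kinase pathway was examined in multipotent progenitors from the bone marrow of Slfn2 mutant (Elektra) and wild-type mice. The genes were 4 p38 kinases (Mapk11, Mapk12, Mapk13 and Mapk14), the kinases Map2k3 and Map2k6 that phosphorylate them, the stress-activated kinase Map3k5 above these, and the effector kinases Mapkapk2 and Mapkapk3. They are 9 of 30918 genes with a symbol on the array. They were selected by symbol from the authors' annotated table, with the brightest probe set standing for a gene. All 9 had 1 probe set, so brightness decided nothing. The genotype difference of Mapk11 was already known when the set was drawn up. That difference is therefore given as a description. The fit over all genes includes Mapk11, but no test that takes in its difference is used as support.

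The p38 kinases are switched on by dual phosphorylation when a cell meets stress, inflammatory cytokines or reactive oxygen. A MAP kinase kinase kinase activates a MAP kinase kinase, which activates p38, and p38 in turn activates effector kinases and transcription factors. In haematopoietic stem cells, p38 is known for linking oxidative and inflammatory stress to loss of quiescence and of long-term function. Activity in this pathway is set by phosphorylation, and transcript levels do not measure it.

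The Elektra group held 4 samples with the genotype Slfn2 elektra/elektra (strain C57BL/6J-Slfn2m1Btlr/Mmucd), a homozygous loss-of-function mutation carried in all cells. The wild-type group held 4 samples of littermates with the genotype Slfn2 wt/wt, on the same C57Bl/6 background. None of the mice had been treated, and ages are not given in the sources used here. Cells were sorted as LSK CD48- CD150- after c-Kit enrichment, and marrow of 2 mice was pooled in each sample according to the protocol, whereas the design text counts 4 mice per genotype.

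Values are log2 intensities on 1 array per sample, so a difference of 1 means 2 times the signal. Kit (9.16 ± 0.09 in wild type, SD, n = 4), Ly6a (8.91 ± 0.36), Cd34 (8.43 ± 0.18) and Flt3 (7.43 ± 0.07), the marker genes of this compartment, were bright. Flt3 was lower in mean in Elektra (7.09 ± 0.16), with separate groups and a limma adjusted p of 0.884, and its part in the results was not tested. Slamf1, the gene of CD150, was dim (1.66 ± 0.34), while Cd48 gave a signal of 3.85 ± 0.36 despite the gate. As a guide to silent genes, 1138 olfactory receptor genes had a median of 1.08 and a 95th percentile of 2.13. Below that value lay 6 of 9 B cell and plasma cell markers (Cd79a among them), 7 of 8 T and NK cell markers (Cd3g), 3 of 8 macrophage markers (Adgre1), 2 of 13 neutrophil and monocyte markers and 10 of 11 mast cell, basophil and eosinophil markers. Of the same lists, Ighm (6.59 in Elektra and 6.93 in wild type), Nkg7 (6.46 and 6.11) and Cd68 (5.30 and 5.65) were well above it. Mean levels of the 8 lists of other cell types' markers overlapped between genotypes. The neutrophil and monocyte list varied most, from 2.72 to 3.42 in Elektra and from 2.66 to 4.07 in wild type, and its part in the results was not tested. Elektra replicate 2 stood apart. Its upper quartile was 3.70, where the remaining arrays had 3.88 to 3.93, and on the leading principal component, which held 28.9% of the variance, it scored -58.2 while they scored 2.4 to 15.2.

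No member passed the test between genotypes. Of all 30918 genes, 0 (0%) had a limma adjusted p under 0.05, with 0.884 as the smallest adjusted value. Before adjustment, 1702 genes (5.5%) were under 0.05. The pooled-variance test also called 0 genes after adjustment and had 1572 under 0.05 before it. Among the 9 members, 6 were higher in mean and 3 lower in Elektra, with a median log2 difference of 0.10 against 0.01 over all genes. In 1 member, Mapk11, all Elektra values lay beyond all wild-type values. Such separation held for 3.23% of all genes in either direction and for 1.86% with Elektra higher, and since Mapk11 was chosen with its difference known, nothing is read from the count. The other 8 members had limma adjusted p-values from 0.884 to 0.997 and overlapping groups. In RNA from a sorted population, fewer cells of a type and less RNA per cell cannot be told apart.

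**Figure D1:**
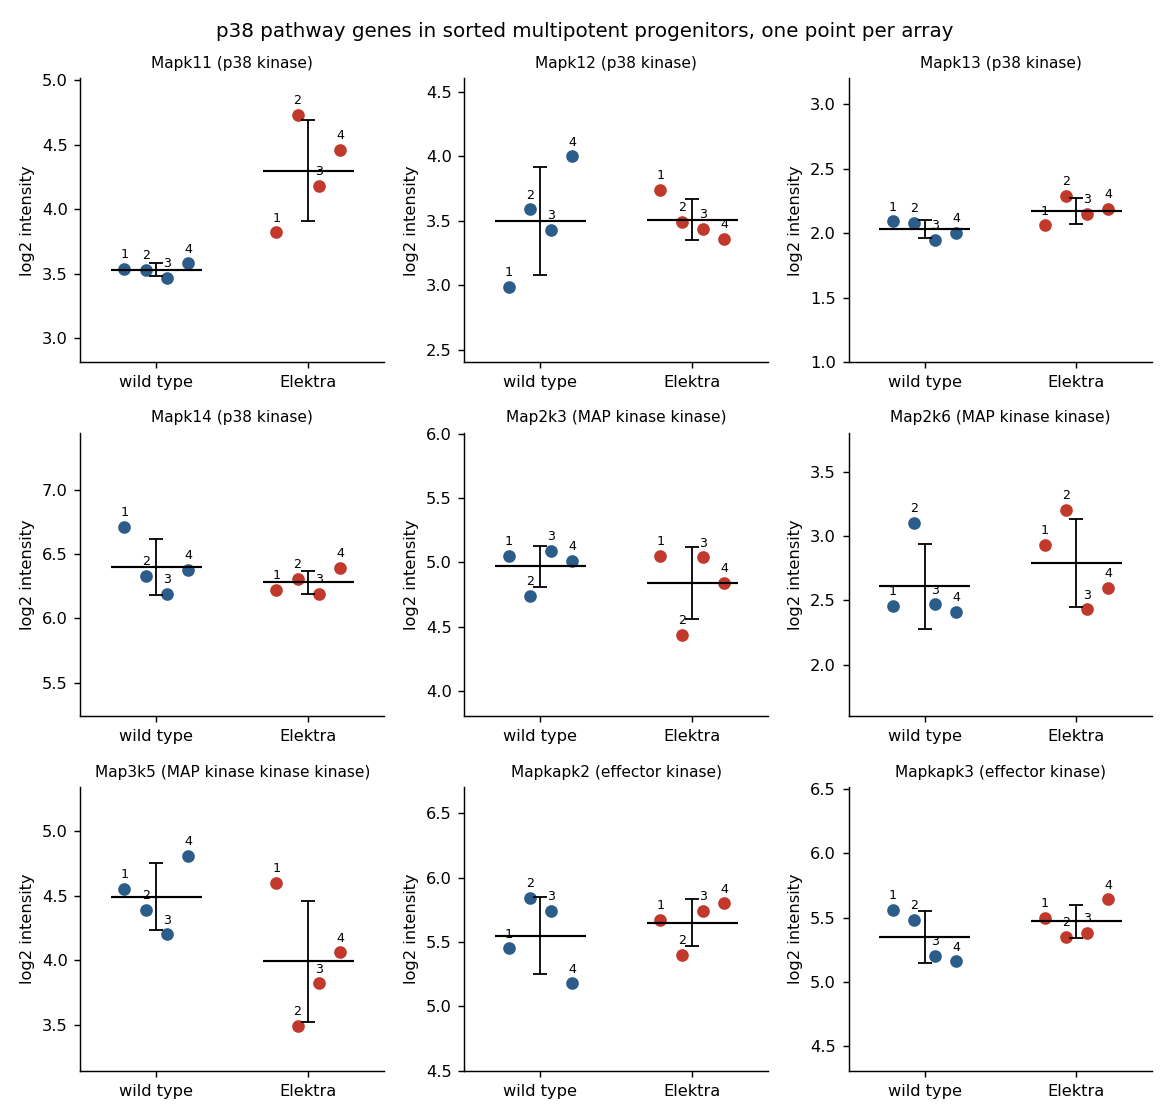
Log2 intensity of each p38 pathway gene in the 4 wild-type (blue) and 4 Elektra (red) arrays, with the replicate number beside each point, the mean as a horizontal line and the SD as an error bar. All panels span the same height of 2.2 log2 units around the gene's own mean. The groups are apart for Mapk11 and overlap for the other 8 genes.

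Mapk11, which encodes p38 beta, showed the widest genotype difference of the 9. Its log2 intensity was 3.82, 4.73, 4.18 and 4.46 in Elektra replicates 1 to 4, and 3.54, 3.53, 3.47 and 3.58 in wild-type replicates 1 to 4. The lowest Elektra array exceeded the highest wild-type array by 0.24. The means were 4.30 ± 0.39 and 3.53 ± 0.05 (SD, n = 4 each), a log2 difference of 0.76 (SE 0.17), or 1.70 times on the linear scale. The limma 95% interval of 0.38 to 1.15 is adjusted neither for the number of genes nor for the choice of Mapk11. Since that choice was made with the difference known, the interval is not read as a test. The wild-type arrays were close together and the Elektra arrays were not. The wild-type range was 0.11, and 5.37% of all genes had a range as narrow. The Elektra range was 0.91, and 8.57% had one as wide. The array that stood apart, Elektra replicate 2, gave the highest Mapk11 value, and without it the difference was 0.62. Between arrays numbered 1 and 2 the difference was 0.73, and between those numbered 3 and 4 it was 0.80.

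Mapk14, which encodes p38 alpha, the p38 kinase with the broadest known role in blood cells, was the brightest member's probe set, at the 95.6th percentile of all genes. It read 6.22, 6.31, 6.19 and 6.39 in Elektra and 6.71, 6.33, 6.19 and 6.38 in wild type. Wild-type replicate 1 was the single high array and the other 7 lay within 0.20 of each other. The log2 difference was -0.12 (SE 0.12, 95% interval -0.39 to 0.15).

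Mapk12, which encodes p38 gamma, had the same mean in both genotypes. It was 3.74, 3.49, 3.44 and 3.36 in Elektra and 2.99, 3.59, 3.43 and 4.00 in wild type. The Elektra values lay wholly inside the wild-type range. The difference was 0.01 (95% interval -0.42 to 0.43).

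Mapk13, which encodes p38 delta, gave a signal close to the guide for silent genes. Its values were 2.06, 2.29, 2.15 and 2.19 in Elektra and 2.09, 2.08, 1.95 and 2.00 in wild type. The groups overlapped only through Elektra replicate 1, which fell below wild-type replicates 1 and 2. The difference was 0.14 (SE 0.09, 95% interval -0.06 to 0.34, limma adjusted p = 0.888). Of the 9 members it was the only one with a mean over all arrays below 2.13, so its level in these cells is close to what the array can resolve.

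**Figure D2:**
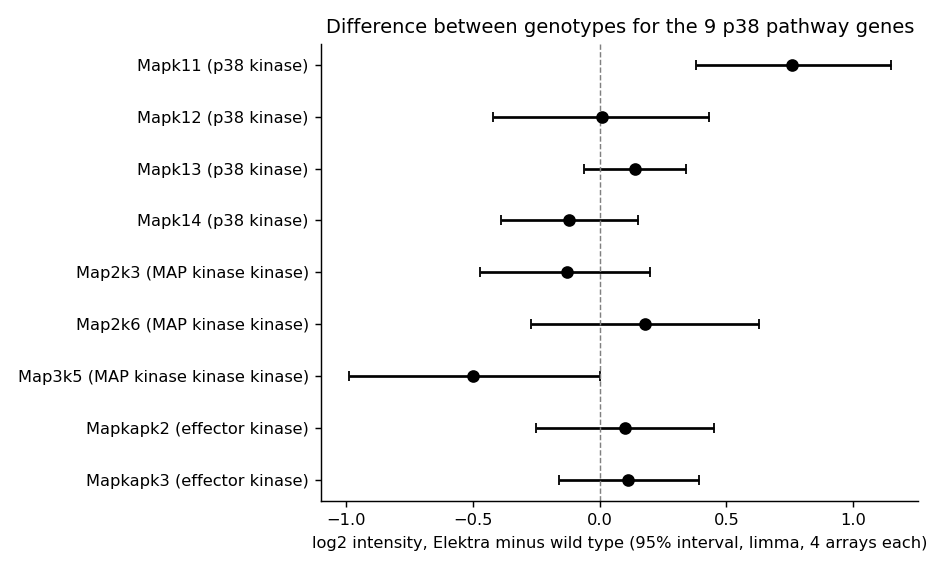
Log2 intensity difference, Elektra minus wild type, for the 9 genes, as points with limma 95% intervals from 4 arrays per genotype. The intervals are not adjusted for the number of genes tested, nor that of Mapk11 for its choice with the difference known. Mapk11 is at 0.76, Map3k5 is at -0.50 and the other 7 lie between -0.13 and 0.18.

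The p38 kinase genes lie as 2 neighbouring pairs, Mapk12 beside Mapk11 on chromosome 15 and Mapk14 beside Mapk13 on chromosome 17 (RefSeq, GRCm38.p6). The difference of Mapk11 was not seen in the genes around it. Hdac10 (0.06), Tubgcp6 (-0.43) and Selo (now Selenoo, -0.18) on the side of Mapk12, and Plxnb2 (0.23), Dennd6b (-0.23) and Ppp6r2 (-0.23) on the other side, all had overlapping groups in log2 difference and limma adjusted p-values of 0.888 to 0.970. Around the Mapk14 and Mapk13 pair, Slc26a8 (-0.23), Srpk1 (0.06), Lhfpl5 (0.15), Brpf3 (0.03), Pnpla1 (0.13) and 4930539E08Rik (now Bnip5, -0.04) overlapped as well. The test of Mapk11 against a neighbour was not made.

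The promoters of Mapk11 and Mapk12 are shown because the genes are neighbours with unlike genotype differences. Each run covers 250 bases before to 50 bases after the start, from RefSeq on GRCm38.p6, 5′ to 3′ on the gene's minus strand, with GC boxes (GGGCGG on either strand) in capitals. The positions are chr15:89149557-89149856 for Mapk11 and chr15:89140654-89140953 for Mapk12.
Mapk11: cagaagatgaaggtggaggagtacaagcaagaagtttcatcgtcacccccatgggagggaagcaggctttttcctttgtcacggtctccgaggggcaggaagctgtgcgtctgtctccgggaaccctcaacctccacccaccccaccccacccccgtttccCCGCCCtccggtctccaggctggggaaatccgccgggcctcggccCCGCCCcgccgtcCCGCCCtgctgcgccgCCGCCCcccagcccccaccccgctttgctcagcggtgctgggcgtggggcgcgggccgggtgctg
Mapk12: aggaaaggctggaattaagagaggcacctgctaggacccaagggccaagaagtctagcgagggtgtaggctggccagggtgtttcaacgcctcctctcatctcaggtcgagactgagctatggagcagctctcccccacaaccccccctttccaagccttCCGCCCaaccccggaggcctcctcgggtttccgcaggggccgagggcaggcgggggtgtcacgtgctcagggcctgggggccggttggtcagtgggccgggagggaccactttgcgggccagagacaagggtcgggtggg
The Mapk11 window held 4 GC boxes and the Mapk12 window 1. A GC box was present in 35.7% of the 32851 promoters searched. The short CRE motif TGACG (20.8% of promoters) was found once in Mapk11, on the other strand, and not in Mapk12. The E box CACGTG (7.15% of promoters) was found once in Mapk12 and not in Mapk11. Neither window held an AP-1 site, TGACTCA or TGAGTCA (5.20% of promoters). The GC content was 69.7% in Mapk11, 65.3% in Mapk12, 68.7% in the first Mapk14 promoter of the table and 78.0% in Mapk13, against a median of 52.7%. These matches describe letters in a window, and binding was not measured.

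Above the p38 kinases, Map3k5, which encodes ASK1, the kinase that responds to oxidative stress, had the second widest difference, in the opposite direction to Mapk11. Its log2 intensity was 4.60, 3.49, 3.82 and 4.06 in Elektra and 4.55, 4.39, 4.20 and 4.81 in wild type. Elektra replicates 2, 3 and 4 lay below all wild-type arrays, and Elektra replicate 1 lay among them. The means were 3.99 ± 0.47 and 4.49 ± 0.26 (SD, n = 4), a difference of -0.50 (SE 0.22, 95% interval -0.99 to 0.00) that did not pass (limma adjusted p = 0.884). The lowest value came from Elektra replicate 2, and without that array the difference was -0.33. It was -0.70 without Elektra replicate 1 and -0.05 without Elektra replicates 2 and 3 and wild-type replicate 4.

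Map2k3 and Map2k6 encode MKK3 and MKK6, the main kinases that phosphorylate p38. Map2k3 was 5.05, 4.44, 5.04 and 4.84 in Elektra and 5.05, 4.74, 5.09 and 5.01 in wild type, with replicate 2 lowest in both genotypes. Its difference was -0.13 (SE 0.15) and became 0.00 without Elektra replicate 2. Map2k6 was 2.93, 3.20, 2.43 and 2.60 in Elektra and 2.46, 3.10, 2.47 and 2.41 in wild type. Here replicate 2 was highest in both genotypes. The Map2k6 difference of 0.18 (SE 0.20) was smaller than the spread within either group (SD 0.34 and 0.33).

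Below p38, Mapkapk2 and Mapkapk3 encode MK2 and MK3, the kinases through which p38 controls the stability of inflammatory mRNAs. Mapkapk2 ranged from 5.40 to 5.80 in Elektra and from 5.18 to 5.84 in wild type, and Mapkapk3 from 5.35 to 5.64 and from 5.16 to 5.56. Their differences were 0.10 (SE 0.16) and 0.11 (SE 0.12). Both were negative between arrays numbered 1 and 2 (-0.11 and -0.10) and positive between those numbered 3 and 4 (0.31 and 0.32). Neither kinase differed beyond the spread of the arrays.

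**Figure D3:**
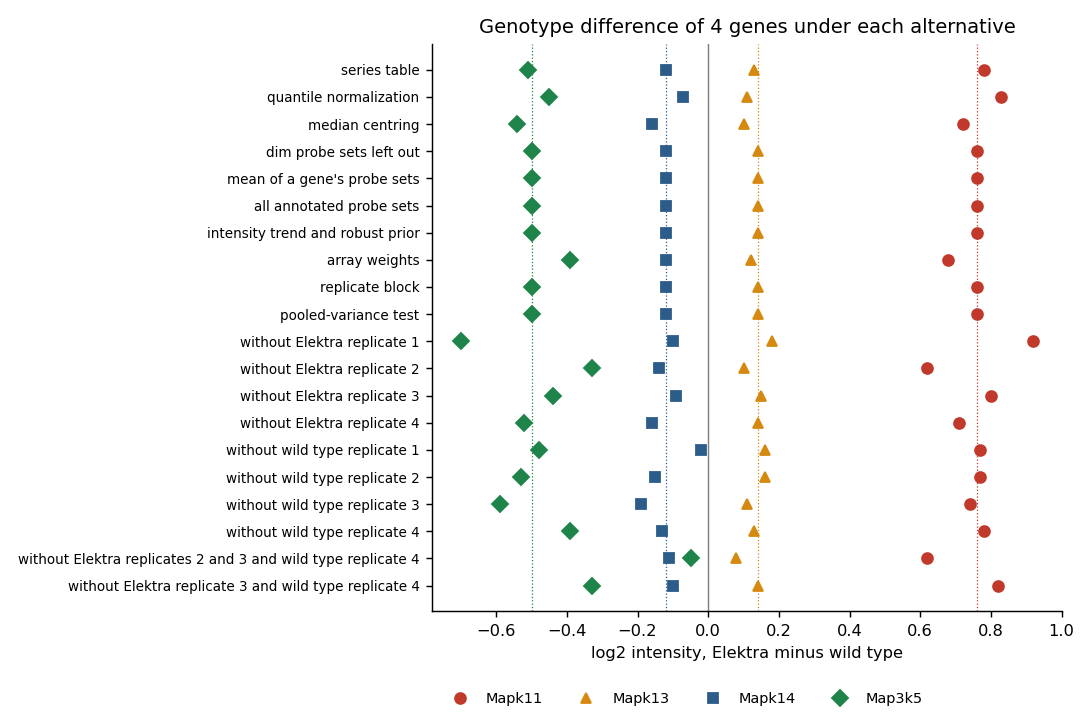
Log2 difference between genotypes for Mapk11, Mapk13, Mapk14 and Map3k5 under 20 alternatives in processing or choice of arrays, with dotted lines at the values reported. Mapk11 stays between 0.62 and 0.92, and Map3k5 spreads from -0.70 to -0.05.

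The correlations among the 9 genes from array to array had no common sign. Of the 36 pairs, 18 correlated positively and 18 negatively over the 8 arrays, with a median Pearson r of -0.02. The closest pair was Mapk11 with Mapk13 (r 0.91, rho 0.81), and r was 0.70 without the 2 arrays farthest from the median of Mapk11. Mapk11 with Map3k5 had an r of -0.81 (rho -0.52), and r was -0.59 without the 2 farthest arrays. Both values take in the genotype difference of Mapk11, so no test of them is read as a result. As deviations from the genotype means, the pairs were put to an exact permutation test within genotypes (two-sided). Of the 36, 3 had an unadjusted p under 0.05 and 0 passed after adjustment. With only 576 pairings, no single pair could have passed on its own, so nothing is read from the 0. For these deviations r was 0.84 for Mapk11 with Mapk13 (exact permutation p = 0.026, adjusted p = 0.50). It was -0.70 for Mapk11 with Map3k5 (exact permutation p = 0.189, adjusted p = 0.736).

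Genes most like Mapk11 were sought among 12352 of the 15459 genes above the median level, leaving out predicted genes, RIKEN clones, small RNAs and the olfactory and vomeronasal receptors by their symbols. By Pearson r over the 8 arrays they were Ostc (0.973, rho 0.786), a subunit of the oligosaccharyltransferase complex, Ctsw (0.963, rho 0.976), a cysteine protease known from cytotoxic lymphocytes, Ephx1 (0.957, rho 0.881), the microsomal epoxide hydrolase, and Agtr1b (0.943, rho 0.786), an angiotensin receptor. Ctsw was 5.02, 5.41, 5.20 and 5.16 in Elektra and 4.83, 4.81, 4.68 and 4.84 in wild type. These 4 were chosen as the highest r among 12352 genes, so no test is given. Their r values take in the genotype difference of Mapk11. Ostc, Ctsw and Ephx1 also had separate groups, with Elektra higher. Elektra replicate 2 was the highest array for Ostc, Ctsw and Ephx1, as it was for Mapk11.

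The wider pathway was described with 5 lists holding 79 genes, all measured, of which 0 passed in either direction in limma. Of the 79, 53 were lower and 26 higher in Elektra, with a median log2 difference of -0.07. At an unadjusted p under 0.05 there were 5, against 5.5% of all genes, and 3 had separate groups, against 3.23% of all genes. Both counts are close to the background. Lower values made up 67.1% of the lists and 46.1% of all genes. Among genes above the median level the shares were 69.0% and 54.3%. With quantile normalisation they were 54.4% of the lists and 47.8% of all genes, and without Elektra replicate 2 they were 64.6% and 46.8%. The lean of the lists was not tested.

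**Figure D4:**
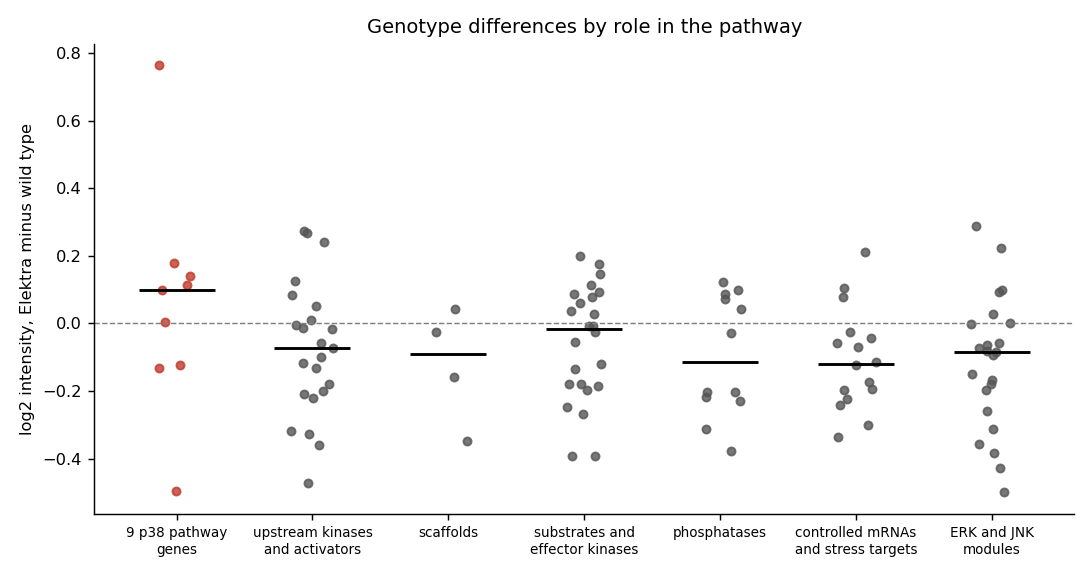
Log2 difference between genotypes for each gene, by role in the pathway, with the median of each group as a black line. The points scatter sideways only to keep them apart. Mapk11 at 0.76 lies above every gene of the other lists.

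Among 23 upstream kinases and activators, 16 were lower and 7 higher. With quantile normalisation the upstream list stood at 12 lower and 11 higher. Taok3, a MAP kinase kinase kinase, measured 4.99 ± 0.12 in Elektra against 5.31 ± 0.22 in wild type (SD, n = 4). For Map3k2, which encodes MEKK2, the means were 3.56 ± 0.52 and 4.03 ± 0.21. Lying the other way were Gadd45g, an activator of Map3k4 (2.59 ± 0.19 and 2.32 ± 0.08), and Daxx, an adaptor that links death receptors to Map3k5 (4.82 ± 0.15 and 4.58 ± 0.12). The arrays of the 2 genotypes overlapped for these 4 genes.

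Of the 4 scaffold genes, Spag9, which encodes JIP4, had the widest difference (4.70 ± 0.21 and 5.04 ± 0.27, limma adjusted p = 0.884). Mapk8ip3 (-0.16), Mapk8ip2 (0.04) and Ccm2 (-0.03) differed less in log2 difference. Among 24 substrates and effector kinases, 14 were lower and 10 higher, a lean that turned to 10 lower and 14 higher with quantile normalisation. Mef2a, a transcription factor phosphorylated by p38, was 7.16, 6.76, 6.95 and 6.62 in Elektra and 7.22, 7.21, 7.37 and 7.25 in wild type. Every Elektra array lay below every wild-type array, by 0.05 at the nearest, and the difference of -0.39 (SE 0.12) did not pass (limma adjusted p = 0.884). Mef2d (5.63 ± 0.20 and 5.88 ± 0.14) and Rps6ka5, which encodes MSK1 (5.05 ± 0.33 and 5.44 ± 0.28), were lower in mean, and Max (6.33 ± 0.11 and 6.13 ± 0.18) higher, with overlapping arrays.

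Phosphatases that switch p38 off were lower for 7 of 12 genes. Ppm1a, of the PP2C family, was 4.54, 4.54, 4.29 and 4.49 in Elektra and 4.67, 4.66, 4.62 and 4.79 in wild type, separate by 0.08 and with a difference of -0.22 (SE 0.10, limma adjusted p = 0.884). Its relative Ppm1b had a log2 difference of -0.23 with overlapping arrays, as did Dusp10 (-0.20), a phosphatase of p38 and JNK, and Dusp2 (-0.38). The list of mRNAs under p38 and MK2 control and of p38 targets in stressed stem cells had 13 of 16 lower. Over all genes 46.1% were lower. The list's lower count was 12 with quantile normalisation and 13 without Elektra replicate 2. It was 10 without Elektra replicates 2 and 3 and wild-type replicate 4. Of the 16 genes, 4 lay below the guide for silent genes, and the lean of this list was not tested. Cdkn2a, the gene of the p16 and p19 cell cycle inhibitors, was higher in Elektra (2.70 ± 0.09 and 2.49 ± 0.11). Its groups were separate by 0.04. The inflammatory genes Tnf (2.35 ± 0.30 and 2.65 ± 0.20) and Ptgs2 (2.14 ± 0.18 and 2.47 ± 0.60) overlapped, and Il6 was near the floor of the array (0.79 ± 0.14 and 0.97 ± 0.09). Mitf (-0.04) and Impdh2 (-0.11), named after their values were seen as the known purine synthesis branch of p38 in stem cells, differed little in log2 difference.

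Several early-response genes in these lists separated the arrays by replicate number and not by genotype. Egr1 was 6.34, 6.36, 3.82 and 4.32 in Elektra replicates 1 to 4 and 6.34, 6.12, 4.82 and 4.06 in wild-type replicates 1 to 4. In both genotypes the arrays numbered 1 and 2 were high and those numbered 3 and 4 were low. The Elektra array numbered 3 gave the lowest Jun value, 7.68, and the split held for Jun as well. It held too for Fos (7.65 to 8.01 and 5.96 to 6.73), Dusp1, the early-response phosphatase of p38 (9.60 to 9.81 and 7.62 to 8.66), Zfp36, an MK2 substrate (9.08 to 9.38 and 7.59 to 8.39), and Dusp2 (6.46 to 7.24 and 5.66 to 6.20). Gadd45b split by a narrow margin (4.43 to 4.81 and 4.08 to 4.37), and Ier3 did not split (3.23 to 4.05 and 3.30 to 3.54). These genes were picked after their values were seen, and no label says what the numbers share. No member split fully in this way. Map2k6 did so except for wild-type replicate 1, at 2.46, which lay among the arrays numbered 3 and 4. Subtracting the mean of numbers 3 and 4 from that of numbers 1 and 2 gave -0.02 for Mapk11, 0.10 for Mapk14 and 0.03 for Map3k5, and it was widest for Map2k6, at 0.44.

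**Figure D5:**
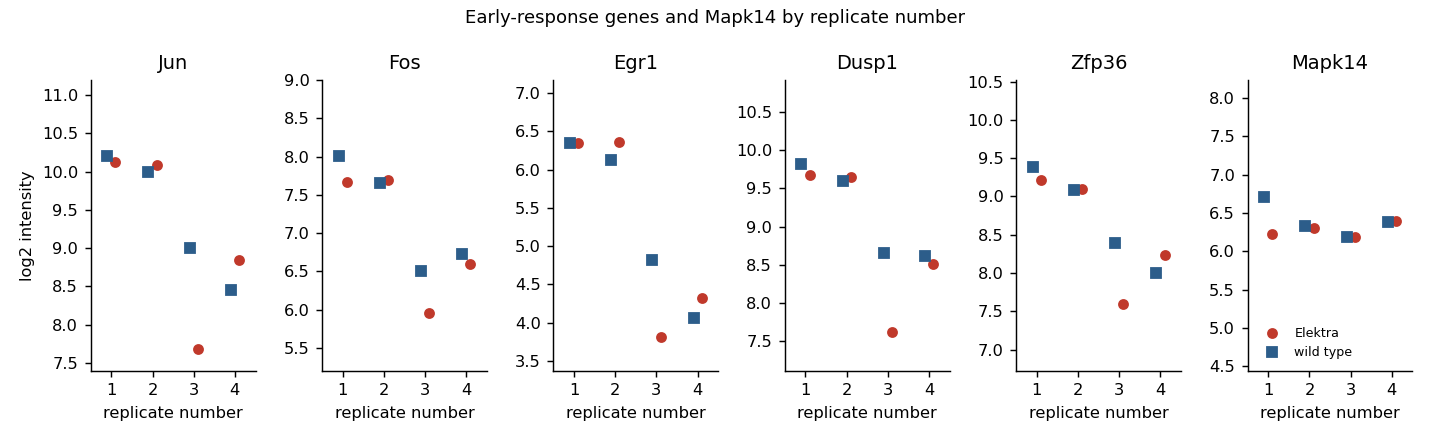
Log2 intensity of 5 early-response genes and Mapk14 against replicate number, for Elektra (red circles) and wild type (blue squares), on panels of equal height. Jun, Fos, Egr1, Dusp1 and Zfp36 are high in replicates 1 and 2 and low in 3 and 4 of both genotypes, and Mapk14 lies between 6.19 and 6.71 throughout.

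The ERK and JNK modules, built from kinases of the same family, were set beside the p38 genes. Of 23 genes 0 passed in limma, 17 were lower and 6 higher in Elektra, and the median log2 difference was -0.08. Those under an unadjusted p of 0.05 were 2, Mapk15 and Araf, where the share over all genes was 5.5%, and 3 had separate groups, where it was 3.23%. Araf, a RAF kinase of the ERK module, was 5.94, 5.63, 5.81 and 5.90 in Elektra and 6.09, 6.05, 6.04 and 6.34 in wild type, with no overlap. Mapk15 (1.78 ± 0.12 and 1.49 ± 0.10) and Mapk10, which encodes JNK3 (1.73 ± 0.05 and 1.89 ± 0.09), were separate in opposite directions below the guide for silent genes. Map2k1, which encodes MEK1, was 4.99 ± 0.22 and 4.76 ± 0.13. Of the kinases at the end of these modules, Mapk3 (0.09), Mapk8 (-0.38) and Mapk9 (-0.07) had overlapping arrays in log2 difference and were named after their values were seen. Whether the p38 genes differ from these modules was not tested.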

How the data were processed

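RMA in Expression Console 1.4 (Affymetrix) gave the authors' log2 values, per the submitters' processing notes; array type and genome build are not given in the sources used here. The annotated table held 34390 probe sets, 31872 of them with 1 symbol, and was used because it pairs values with symbols. The deposited series table of 41345 probe sets served as an alternative, and its log2 values differed by at most 0.291. Each gene took its brightest probe set across all 8 arrays, which left 30918 genes, dim ones included. Genotypes were compared with lmFit and eBayes in limma 3.58.1 (R 4.3.3), as a two-sided test; p-values were adjusted by Benjamini-Hochberg across the whole table, called under 0.05, and the fit was tested on simulated data. The number of arrays limits the precision.

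The members and lists were chosen with earlier results of these data known. Named genes are all members, up to 4 genes of smallest p per pathway list, the 3 coding genes on each side of both p38 pairs, the sort markers and the 4 genes most like Mapk11; exceptions are stated, and some genes are not reported here. Of 184 list entries, 1 matched by a RefSeq synonym and 2 had no probe set. No label says what the replicate numbers share, so the main fit did not take them as pairs. Same-numbered arrays correlated in their deviations at 0.0106 to 0.135, all of them positive, which does not settle whether they are pairs. Several early-response genes did split by number, and an alternative fit used the number as a block. Alternatives covered the input table, normalisation, probe set choice, dim probe sets, prior, weights, block, test, threshold and arrays left out.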

Additional observations from a re-analysis of the deposited data

Results flagged for a closer look

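Of 86 groups of 4 arrays looked at, over 43 named genes, 3 held 1 array far from the other 3, and chance gives about 1 in 20. Map2k6 in wild-type replicate 2 was 3.10, where the other wild-type arrays lay between 2.41 and 2.47. Tnf in Elektra replicate 2 was 1.89, against 2.47 to 2.52 in the other Elektra arrays. Map2k1 in Elektra replicate 4 was 5.32, against 4.87 to 4.88.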

How the results depend on the processing

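No alternative called any gene, so the counts of 0 among all genes, the 9 members, the 79 other pathway genes and the 23 ERK and JNK genes were the same under every alternative run, with an adjusted p of 0.10 included. Mapk11 kept its direction and its separate groups in all 20. Leaving out arrays, or changing the fit, threshold, probe set choice or dim filter, could not undo that separation. Only the input table and normalisation settings could have changed it. The Mapk11 log2 difference was 0.62 when Elektra replicate 2 was left out and 0.92 when Elektra replicate 1 was. On leaving out each array, between 1 and 3 members had separate groups. The 3 were found without Elektra replicate 1, where Mapk13 and Map3k5 joined Mapk11 and 7.25% of all genes had separate groups. The sign turned in 5 alternatives for Mapk12, 2 for Mapkapk2 and 1 for Map2k3, and in 0 for the others. The median over the 9 members stayed between 0.04 and 0.16. Over all 8 arrays 1 pair of members, Mapk11 with Mapk13, had a correlation past the threshold. That count takes in the known difference of Mapk11, so it is not read as a result. The count was 0 with median centring, 0 with quantile normalisation and 0 with the series table, and the cause was not tested. As deviations from the genotype means it was 0 as well, where no single pair could have passed on its own. With the replicate number as a block, 0 members were called, the Mapk11 difference was 0.76 and 1880 genes had an unadjusted p under 0.05 against 1702 without it, and 4 of 8 arrays correlated best with their own number. The within-number differences of Mapk11, the lean of the lists and the correlation inputs were looked at after seeing the data. Mapk13 is the member most limited by signal over background.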

Other observations

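Neutrophil granule genes varied widely among arrays of both genotypes and were picked after their values were seen. Ngp was 5.58, 3.47, 3.45 and 6.12 in Elektra replicates 1 to 4 and 5.16, 7.06, 3.03 and 3.61 in wild type. Camp was 3.58, 1.28, 2.31 and 4.28 in Elektra and 3.36, 5.33, 1.70 and 1.91 in wild type. Both were highest in wild-type replicate 2 and next highest in Elektra replicate 4, and a link to Mapk11 was not tested.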
